A study of Mus musculus with 10 samples.

Results

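Collagen chains of types I, III, V, VI, XII and XIV were examined in cells sorted from calvarial sutures, where fibrous tissue joins the skull vault bones, of mice at postnatal day 7. The members were fixed by name as Col1a1, Col1a2, Col3a1, Col5a1, Col5a2, Col6a1, Col6a2, Col6a3, Col12a1 and Col14a1, and 10 of the 10 were found among the 25239 gene symbols of the deposited count table, which holds 44 collagen chain genes. DDR2-plus cells gave 5 RNA-seq libraries and PSC cells gave 5, numbered 1 to 5 in each group by the sample titles, which use the same numbers for both. DDR2 is a receptor kinase of the cell surface that binds fibrillar collagen, and PSC is not spelled out in the labels. Both groups carry the genotype label WT, whereas the protocol for both names Ctsk-Cre mice, in which the promoter of the cathepsin K gene drives the Cre recombinase, so that the alleles of the animals are not settled by the sources used here. Both groups are labelled as sorted calvarial stem cells, the sort gates are not stated, and the libraries are not tied to the 5 animals that the protocol states. P-values therefore measure the spread between these libraries only.

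Collagens are secreted proteins built from alpha chains that wind into a triple helix. Type I collagen forms the thick fibrils of bone, tendon and skin, type III joins it in the thinner fibrils of soft connective tissue, and type V sits inside type I fibrils and sets how they start and how thick they become. Type VI forms beaded microfilaments around cells, and types XII and XIV bind to the surface of finished fibrils. In the skull vault, type I collagen makes up most of the organic matrix of bone and also fills the suture, while type II collagen is the fibril former of cartilage.

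DDR2-plus libraries held 49843470 to 62021992 counts in total and PSC libraries held 43419129 to 58270419, and the member with the fewest reads had at least 5514 counts in every library. The protocol makes cDNA from full-length transcripts, amplifies it and does not mark the strand. Markers of several lineages were unequal between the groups. A list of 10 chondrocyte markers summed to 18579 to 25092 CPM (the count scaled by library total and TMM factor) in DDR2-plus and to 2216 to 4955 CPM in PSC, and 10 of its 10 genes were higher in DDR2-plus by edgeR. A list of 10 neuron and pineal markers summed to 179 to 332 CPM in DDR2-plus and to 7.22 to 12.8 CPM in PSC, where Aanat was at 0 in all libraries, the highest sums being those of DDR2-plus 1 and DDR2-plus 3. A list of 6 Schwann cell markers summed to 199 to 645 CPM in DDR2-plus, highest in DDR2-plus 1, and to 7.92 to 40.9 CPM in PSC.

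The 10 collagen genes were lower in DDR2-plus than in PSC, by 1.63-fold to 5-fold. By edgeR's quasi-likelihood test with Benjamini-Hochberg adjustment over 15416 genes, 10 of the 10 fell, with adjusted p of 5.82e-05 or less, and 0 rose. Over all tested genes 19.0% fell and 20.1% rose. The members' median log2 fold change was -1.93, whereas that of all tested genes was 0.04. Every DDR2-plus library lay below every PSC library for 10 of the 10, as it did for 14.6% of all tested genes. A fall of at least 2-fold was found for 7 of the 10, against 6.01% of all tested genes. Col6a2, at -1.16, moved to -0.89 with library size alone, short of a 2-fold fall. With scaling by library size alone the split over all tested genes moved to 5408 higher and 1539 lower, from the 3096 higher and 2926 lower of the TMM fit, and the median of all tested genes moved to 0.31, while 10 of the 10 members still fell. In sorted bulk samples, fewer cells of a type and less RNA per cell cannot be told apart.

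**Figure D1:**
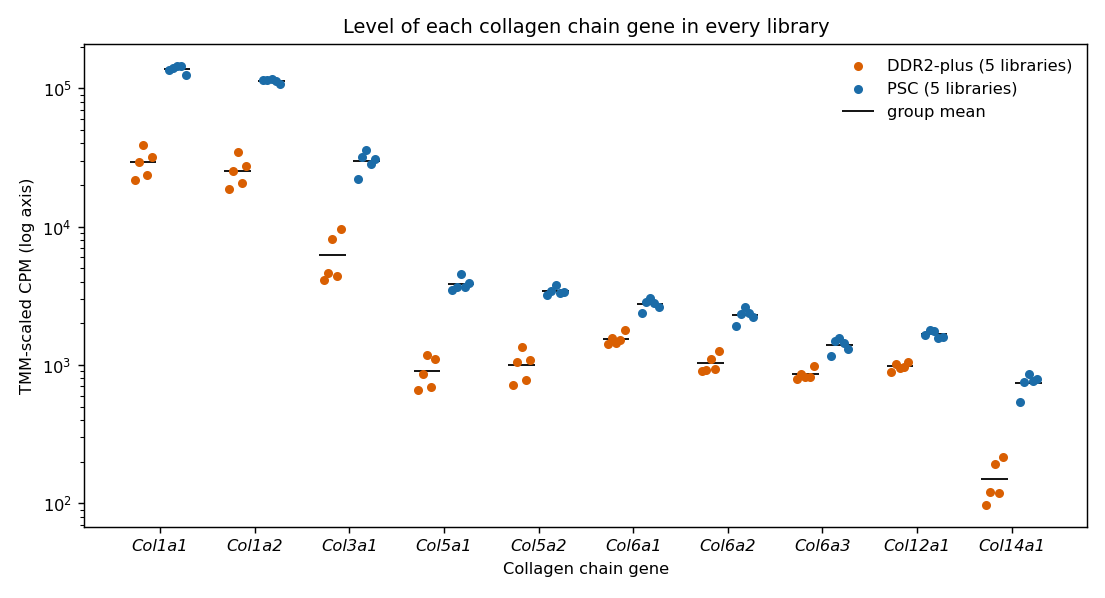
CPM (log axis) of the 10 collagen genes in each of the 5 DDR2-plus and 5 PSC libraries; each point is a library and each bar is a group mean. The DDR2-plus points lie below all PSC points for every gene, and the edgeR fold change between the groups is largest for Col14a1 (5-fold) and smallest for Col6a3 (1.63-fold).

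Type I collagen was by far the most abundant of the 10 by read count. Col1a1, which encodes the alpha 1 chain and lies on mm10 chromosome 11 (94936224 to 94953042, plus strand), had 21734, 29417, 38926, 23686 and 31827 CPM in DDR2-plus 1 to 5, against 134958, 140678, 144855, 143786 and 125095 CPM in PSC 1 to 5. The highest DDR2-plus library was far below the lowest PSC library. Col1a1 averaged 29118 ± 6849 CPM in DDR2-plus, against 137874 ± 8114 CPM in PSC (SD, n = 5 each), so the log2 fold change was -2.24 with an SE of 0.138 (edgeR adjusted p = 4.35e-07). Col1a2, the gene of the partner chain on chromosome 6 (4504814 to 4541544, plus strand), had 18554, 25355, 34662, 20524 and 27447 CPM in DDR2-plus 1 to 5, against 115404, 114816, 115819, 112139 and 107080.0 CPM in PSC 1 to 5. It averaged 25309 ± 6336 CPM in DDR2-plus, against 113051 ± 3633 CPM in PSC, so the log2 fold change was -2.16 with an SE of 0.142 (edgeR adjusted p = 5.2e-07). Both genes were lowest in DDR2-plus 1 and highest in DDR2-plus 3, and the order of the 5 DDR2-plus libraries was the same for both chains of the heterotrimer. Within DDR2-plus the coefficient of variation was 23.5% for Col1a1 and 25% for Col1a2, against 5.89% and 3.21% in PSC.

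Col3a1, which encodes the single chain type of collagen III, lies on chromosome 1 (45311538 to 45349706, plus strand). It had 4143, 4591, 8142, 4425 and 9650.4 CPM in DDR2-plus 1 to 5, against 21907, 31649, 35811, 28549 and 30556 CPM in PSC 1 to 5. Its DDR2-plus values fell into a higher pair, DDR2-plus 3 and DDR2-plus 5, and 3 libraries near the lowest value. Col3a1 averaged 6190.2 ± 2532 CPM in DDR2-plus, against 29694 ± 5097 CPM in PSC, so the log2 fold change was -2.26 with an SE of 0.241 (edgeR adjusted p = 1.3e-05). It had the widest spread of the 10 genes in both groups, with a coefficient of variation of 40.9% in DDR2-plus and 17.2% in PSC. Of its exonic bases, 2.53% are shared with another annotated gene.

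The type V chains fell with type I and III. Col5a1, whose product is needed for fibrils to start, lies on chromosome 2 (27886425 to 28039514, plus strand). It had 657, 861, 1174, 692 and 1108 CPM in DDR2-plus 1 to 5, against 3492, 3654, 4510.0, 3641 and 3897 CPM in PSC 1 to 5. It averaged 898 ± 236 CPM in DDR2-plus, against 3839 ± 402 CPM in PSC, so the log2 fold change was -2.10 with an SE of 0.16 (edgeR adjusted p = 1.18e-06). Col5a2, the gene of the second type V chain, lies next to Col3a1 on chromosome 1 but on the minus strand (45374321 to 45503282). It had 720.1, 1048, 1348, 781 and 1091 CPM in DDR2-plus 1 to 5, against 3208, 3415, 3766, 3296 and 3363 CPM in PSC 1 to 5. Both genes were highest in DDR2-plus 3 and lowest in DDR2-plus 1, as the type I chains were. Col5a2 averaged 998 ± 254 CPM in DDR2-plus, against 3410 ± 214 CPM in PSC, so the log2 fold change was -1.77 with an SE of 0.148 (edgeR adjusted p = 2.12e-06). Of the exonic bases of Col5a1, 2.52% are shared with other annotated genes; apart from Col3a1 and Col5a1, the members share 0 exonic bases.

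Of 3 members, Col3a1 and Col5a1 fell by similar amounts and Col6a3 fell by less. Stretches upstream of their transcription starts are shown, so that base composition can be read beside the size of the fall. They come from RefSeq on GRCm38.p6 and run 250 bases up to the start, 5′ to 3′ on the strand of the gene. RefSeq promoter entries were matched for 6 of the 10 members, and 4 had an entry with the same start in RefSeq and in the GENCODE annotation. The 3 shown are among these. Col6a2 is the other, with 59.2% G and C and 1 GC box match in that entry and a log2 fold change of -1.16. The motifs searched on both strands were the CCAAT box (letters CCAAT), the GC box (letters GGGCGG) and the TATA box (letters TATAAA), and capitals mark a match.
Col3a1 (chr1:45311288-45311537, plus strand): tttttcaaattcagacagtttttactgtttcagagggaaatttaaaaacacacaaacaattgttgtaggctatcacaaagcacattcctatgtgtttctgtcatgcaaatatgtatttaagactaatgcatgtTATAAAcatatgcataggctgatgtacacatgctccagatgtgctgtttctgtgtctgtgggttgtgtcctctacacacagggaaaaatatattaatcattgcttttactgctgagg
Col5a1 (chr2:27886175-27886424, plus strand): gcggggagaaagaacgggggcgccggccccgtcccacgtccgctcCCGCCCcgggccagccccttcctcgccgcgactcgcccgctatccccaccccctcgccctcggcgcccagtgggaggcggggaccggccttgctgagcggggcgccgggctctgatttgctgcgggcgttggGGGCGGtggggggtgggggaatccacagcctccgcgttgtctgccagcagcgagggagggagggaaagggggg
Col6a3 (chr1:90843972-90844221, minus strand): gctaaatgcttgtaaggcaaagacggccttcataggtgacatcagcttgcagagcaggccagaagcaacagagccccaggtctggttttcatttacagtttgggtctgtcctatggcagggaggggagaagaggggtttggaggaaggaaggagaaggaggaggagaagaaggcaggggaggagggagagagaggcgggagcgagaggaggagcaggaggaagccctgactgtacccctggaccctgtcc
The Col3a1 stretch was 35.2% G and C, held 0 CpG dinucleotides and had 1 TATA box match, 117 bases before the start. The Col5a1 stretch was 76.4% G and C, held 28 CpG dinucleotides and had 2 GC box matches, of which the first is on the other strand. The Col6a3 stretch was 57.2% G and C, with 3 CpG dinucleotides and no match to the 3 motifs in this window. No match overlapped another. Over 32851 RefSeq promoter stretches of the same length, the median was 52.4% G and C and 6 CpG dinucleotides, and 33.8% held the CCAAT box, 32.7% the GC box and 12.4% the TATA box on either strand. Col3a1 and Col5a1 lay on opposite sides of the median base composition, and their log2 fold changes were -2.26 and -2.10. Whether base composition goes with the size of the fall was not tested.

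The type VI chains had smaller fold changes than the chains of types I, III and V. Col6a1 lies on chromosome 10 (76708792 to 76726168, minus strand) beside Col6a2 (76595762 to 76623630, minus strand), and the chains of both join the longer chain of Col6a3 in each type VI molecule. Col6a1 had 1429, 1564, 1439, 1504 and 1789 CPM in DDR2-plus 1 to 5, against 2394, 2846, 3068, 2807 and 2612 CPM in PSC 1 to 5. It averaged 1545 ± 147 CPM in DDR2-plus, against 2745 ± 255 CPM in PSC, so the log2 fold change was -0.83 with an SE of 0.0839 (edgeR adjusted p = 8.56e-06). The groups did not overlap, although the mean of DDR2-plus was 56.3% of the mean of PSC, against 21.1% for Col1a1. Col6a2 had 902, 927, 1115, 936 and 1266 CPM in DDR2-plus 1 to 5, against 1907, 2356, 2642, 2360 and 2215 CPM in PSC 1 to 5. It averaged 1029 ± 157 CPM in DDR2-plus, against 2296 ± 267 CPM in PSC, so the log2 fold change was -1.16 with an SE of 0.111 (edgeR adjusted p = 5.7e-06). Its product is a short chain like that of Col6a1, and its groups did not overlap. Col6a3 (chromosome 1, 90765923 to 90843971, minus strand) had 787, 857, 814, 825 and 989 CPM in DDR2-plus 1 to 5, against 1160.3, 1490.5, 1566, 1446 and 1315 CPM in PSC 1 to 5. It had the smallest change of the 10 genes, with 854.5 ± 79.4 CPM in DDR2-plus, against 1395 ± 160 CPM in PSC, so the log2 fold change was -0.71 with an SE of 0.0911 (edgeR adjusted p = 5.82e-05). The 3 type VI genes were highest in DDR2-plus 5 among the DDR2-plus libraries and in PSC 3 among the PSC libraries.

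Types XII and XIV, which share a role on the fibril surface, moved by very different amounts. Col12a1 (chromosome 9, 79598991 to 79718831, minus strand) had 884, 1021, 953, 973 and 1055 CPM in DDR2-plus 1 to 5, against 1650, 1797, 1769, 1578 and 1593 CPM in PSC 1 to 5. It was among the steadiest of the 10 genes, with a coefficient of variation of 6.69% in DDR2-plus and 6% in PSC. It averaged 977 ± 65.4 CPM in DDR2-plus, against 1677 ± 101 CPM in PSC, so the log2 fold change was -0.78 with an SE of 0.0677 (edgeR adjusted p = 2.74e-06). Col14a1 (chromosome 15, 55307750 to 55520803, plus strand) had 97.7, 121, 193, 119 and 215 CPM in DDR2-plus 1 to 5, against 538, 751, 866, 772 and 799 CPM in PSC 1 to 5. It was the least abundant of the 10 and had the largest fold change of them. It averaged 149 ± 51.4 CPM in DDR2-plus, against 745 ± 124 CPM in PSC, so the log2 fold change was -2.32 with an SE of 0.214 (edgeR adjusted p = 4.29e-06).

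Levels were set side by side after division by the merged exon length of each gene. In DDR2-plus the order was Col1a1 (4910.3 ± 1155 CPM per kb), Col1a2 (4732 ± 1185), Col3a1 (1113 ± 455), Col6a1 (377 ± 35.8), Col6a2 (171 ± 26.2), Col5a2 (151 ± 38.3), Col5a1 (107 ± 28), Col12a1 (80.4 ± 5.38), Col6a3 (78.7 ± 7.32) and Col14a1 (23.1 ± 7.95). In PSC it was Col1a1 (23250.3 ± 1368 CPM per kb), Col1a2 (21139 ± 679), Col3a1 (5337 ± 916), Col6a1 (669.6 ± 62.2), Col5a2 (515 ± 32.3), Col5a1 (457 ± 47.9), Col6a2 (382 ± 44.4), Col12a1 (138 ± 8.29), Col6a3 (129 ± 14.7) and Col14a1 (115 ± 19.1). The order differed between the groups in the place of Col6a2, which stood above both type V chains in DDR2-plus and below both in PSC by the group means. That place depends on the divisor, which pools the exons of the annotated transcripts: 6008 bases for Col6a2, against 4100 for Col6a1. Whether the order holds at another length was not tested. Among the DDR2-plus libraries the ranges of Col6a2 and Col5a2 overlapped, and Col6a2 was above Col5a2 in 3 of 5. Neighbours whose ranges overlapped in both groups were Col1a1 and Col1a2, Col5a2 and Col5a1, and Col12a1 and Col6a3. Col3a1 overlapped neither neighbour in either group.

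Ratios between chains within a library, which do not depend on the scaling between libraries, were compared for 10 pairs with two-sided exact permutation tests and Benjamini-Hochberg adjustment over the 10. With 5 libraries a group the smallest p such a test can give is 0.00794. Relative to Col1a1, Col6a1 stood at 0.037 to 0.0657 in DDR2-plus and at 0.0177 to 0.0212 in PSC, a log2 difference of 1.44 (SE 0.155; exact p = 0.00794, adjusted p = 0.0132). Col12a1 relative to Col1a1 stood at 0.0245 to 0.0411 in DDR2-plus and at 0.011 to 0.0128 in PSC, a log2 difference of 1.49 (SE 0.141; exact p = 0.00794, adjusted p = 0.0132). In both cases the ratio was higher in 5 of 5 DDR2-plus libraries than in any PSC library. Col14a1 relative to Col12a1 stood at 0.11 to 0.204 in DDR2-plus and at 0.326 to 0.502 in PSC, a log2 difference of -1.59 (SE 0.228; exact p = 0.00794, adjusted p = 0.0132). The fibril-surface collagens therefore stood in a different proportion to each other in the groups.

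The ratios of Col3a1, Col5a1, Col14a1 and Col1a2 to Col1a1 moved less. Col3a1 relative to Col1a1 stood at 0.156 to 0.303 in DDR2-plus and at 0.162 to 0.247 in PSC, with a log2 difference of -0.06 (SE 0.195; exact p = 0.754). The ranges overlapped, and the SE leaves a wide interval around that difference. Col5a1 relative to Col1a1 (log2 difference 0.14, SE 0.0825; exact p = 0.119, adjusted p = 0.149) and Col14a1 relative to Col1a1 (log2 difference -0.10, SE 0.168; exact p = 0.563, adjusted p = 0.626) did not pass the test either. Col1a2 relative to Col1a1 stood at 0.854 to 0.89 in DDR2-plus and at 0.78 to 0.856 in PSC, a log2 difference of 0.08 (SE 0.0285; exact p = 0.0238, adjusted p = 0.034). The ranges of that ratio overlapped, and its adjusted p was 0.068 when any of 7 of the 10 libraries was left out: DDR2-plus 2, 3, 4 or 5, or PSC 2, 3 or 4.

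Within types V and VI the chains also changed proportion. Col5a2 relative to Col5a1 stood at 0.984 to 1.22 in DDR2-plus and at 0.835 to 0.935 in PSC, a log2 difference of 0.32 (SE 0.0588; exact p = 0.00794, adjusted p = 0.0132). Col6a2 relative to Col6a1 stood at 0.593 to 0.775 in DDR2-plus and at 0.797 to 0.861 in PSC, a log2 difference of -0.33 (SE 0.0729; exact p = 0.00794, adjusted p = 0.0132). Col6a3 relative to Col6a1 stood at 0.548 to 0.566 in DDR2-plus and at 0.485 to 0.524 in PSC, a log2 difference of 0.13 (SE 0.0206; exact p = 0.00794, adjusted p = 0.0132). Of the 10 ratios, 7 passed after adjustment.

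**Figure D2:**
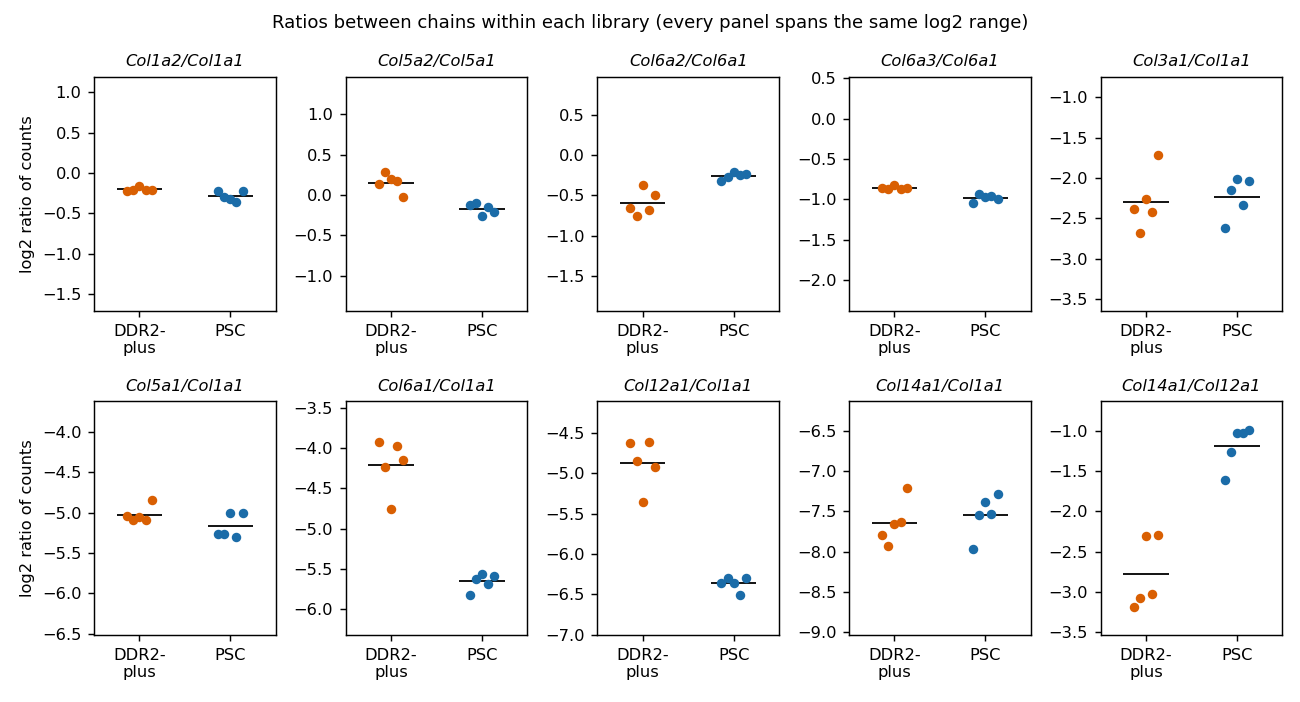
Within-library count ratios between chains (log2 scale) in the 5 DDR2-plus and 5 PSC libraries, with a panel for each of the 10 ratios; points are libraries and bars are group means. Col6a1 and Col12a1 relative to Col1a1 sit higher in every DDR2-plus library than in any PSC library, and Col3a1 relative to Col1a1 overlaps.

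As a share of all counts, the 10 genes took 5.65%, 6.98%, 9.94%, 6% and 8.23% in DDR2-plus 1 to 5, against 26.1%, 27.6%, 28.6%, 27% and 25.8% in PSC 1 to 5. The mean was 7.36% ± 1.75 in DDR2-plus and 27% ± 1.14 in PSC (SD, n = 5 each). Type I took most of that in both groups. Type III took 0.679% ± 0.274 of all counts in DDR2-plus and 2.7% ± 0.466 in PSC, and type V took 0.208% ± 0.0528 in DDR2-plus and 0.66% ± 0.0563 in PSC. Type VI took 0.376% ± 0.0343 in DDR2-plus and 0.586% ± 0.06 in PSC, and types XII and XIV together took 0.124% ± 0.00952 in DDR2-plus and 0.221% ± 0.016 in PSC. Type VI thus took more counts than type V in DDR2-plus and fewer in PSC by the group means.

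Among the counts of collagen genes alone, the 10 members held 34.7% ± 7.46 in DDR2-plus and 91% ± 1.89 in PSC. The 7 cartilage collagens, Col2a1 among them, held 63.5% ± 7.44 of collagen counts in DDR2-plus and 7.3% ± 1.92 in PSC. Type VI was the class whose share of collagen counts was nearest between the groups as a ratio, at 1.78% ± 0.126 in DDR2-plus and 1.97% ± 0.165 in PSC. Col2a1, the chain of the main cartilage fibril, took 8.84%, 9.4%, 7.3%, 10.1% and 9.06% of all counts in DDR2-plus 1 to 5, against 1.36%, 1.13%, 0.673%, 1.72% and 1.2% in PSC 1 to 5. The library with the highest share of the 10 members in each group, DDR2-plus 3 and PSC 3, was the library with the lowest share of Col2a1 in that group. The count of Col2a1 over that of Col1a1 was 1.67 to 3.85 in DDR2-plus and 0.0512 to 0.133 in PSC. All collagen genes together took 21.1% ± 1.06 of counts in DDR2-plus and 29.7% ± 0.955 in PSC.

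**Figure D3:**
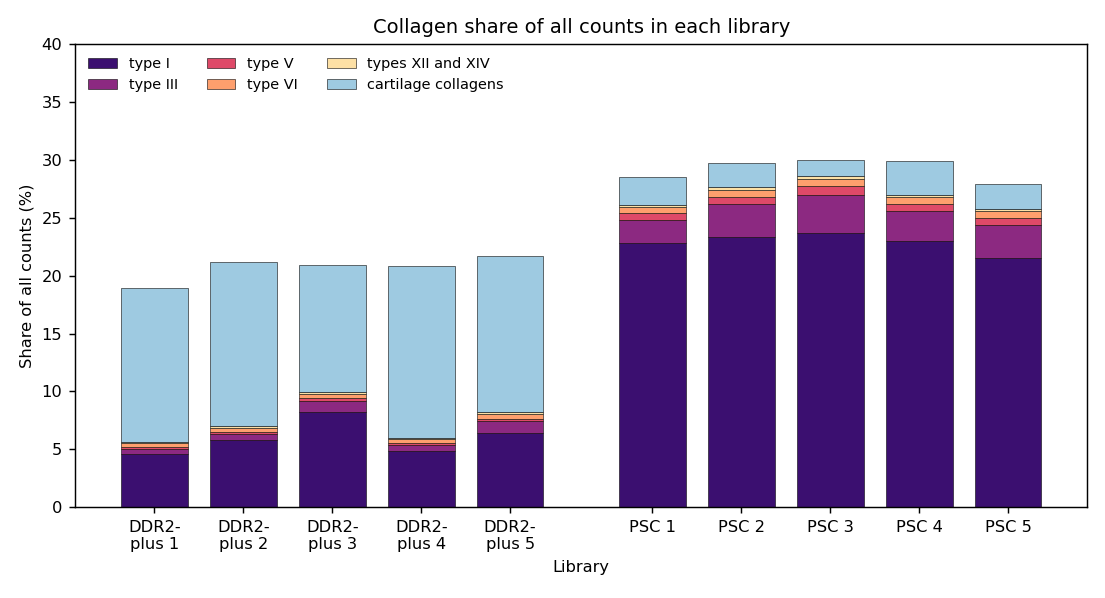
Percent of all counts (linear axis from 0) taken by types I, III, V, VI, XII with XIV, and the 7 cartilage collagens in each of the 5 DDR2-plus and 5 PSC libraries, stacked in a bar per library; other collagens are not drawn. Type I takes 4.56% to 8.24% in DDR2-plus and 21.5% to 23.7% in PSC, and the cartilage collagens average 13.4% in DDR2-plus and 2.16% in PSC.

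The 10 genes were ordered alike across libraries only in part. DDR2-plus 1 was the lowest DDR2-plus library for 10 of the 10. The highest was DDR2-plus 3 for Col1a1, Col1a2, Col5a1 and Col5a2, and DDR2-plus 5 for the other 6. Within PSC, PSC 3 was highest for 9 of the 10, with PSC 2 highest for Col12a1.

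Markers of further lineages were read beside the collagens. A list of 10 osteoblast markers summed to 7977, 10184, 13823, 6787 and 8518 CPM in DDR2-plus 1 to 5, against 47778, 35521, 37155, 34711 and 35866 CPM in PSC 1 to 5, and 8 of its 10 genes fell. Runx2 and Alpl were not called (edgeR log2 fold change -0.05 and -0.11). Spp1 had the highest mean of the list, with 4095 ± 1031 CPM in DDR2-plus, against 22191 ± 4043 CPM in PSC, so it weighs most on the sums. DDR2-plus 3 had the highest sum of osteoblast markers and the highest Col1a1 of its group. PSC 1 had the highest sum of its group with 134958 CPM of Col1a1, the second lowest of that group. A list of 8 fibroblast markers summed to 2363 to 3278 CPM in DDR2-plus and to 6258 to 8275 CPM in PSC, and 7 of its 8 genes fell. Most of that sum in both groups was Dcn and Lum, and Pi16 was not called. Of 7 tendon markers, 5 fell and 2 rose, with a median log2 fold change of -3.44. Tnmd, which encodes tenomodulin, had 75.9 ± 23.1 CPM in DDR2-plus, against 1450.5 ± 99.4 CPM in PSC, and Scx, the tendon transcription factor scleraxis, had 9.65 ± 2.21 CPM in DDR2-plus, against 105 ± 11.6 CPM in PSC. The sum of the list overlapped between the groups, with 6514 to 7910.1 CPM in DDR2-plus and 6448 to 8015 CPM in PSC, and most of the DDR2-plus sum was Egr1 and Fmod, the 2 genes that rose. Endothelial markers summed to 21.5 to 41.9 CPM in DDR2-plus and 17.9 to 40.3 CPM in PSC, and blood cell markers to 4.13 to 9.08 CPM in DDR2-plus and 3.59 to 8.15 CPM in PSC. The sums of these lists overlapped between the groups; of 5 endothelial markers tested 2 fell and 2 rose, and of 3 blood cell markers tested 0 were called. Osteoclast markers summed to 552 to 859 CPM in DDR2-plus and 145 to 386 CPM in PSC, nearly all of it Mmp9. Only 2 of these 6 were tested: Mmp9 rose, and Acp5 fell, with 14.5 ± 2 CPM in DDR2-plus, against 27 ± 2.44 CPM in PSC, while Dcstamp was at 0 in all PSC libraries. Mural and muscle markers summed to 195 to 292 CPM in DDR2-plus and 148 to 182 CPM in PSC, most of it Acta2. Of 6 of these tested, 2 rose (Acta2 and Tnnt3), 1 fell and 3 were not called, and the one that fell, the smooth muscle gene Myh11, had 0.728 ± 0.772 CPM in DDR2-plus, against 17.5 ± 5.89 CPM in PSC. Epithelial markers summed to 18.5 to 75.9 CPM in DDR2-plus and 3.63 to 10.4 CPM in PSC, and 4 of 4 tested rose. The part of the chondrocyte, osteoblast, fibroblast and other markers in the collagen differences was not tested.

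The other collagen genes did not follow a common direction. Of 33 tested collagen genes outside the members, 13 fell, 10 rose and 10 did not pass the edgeR test, with a median log2 fold change of -0.14. Of the other type V and VI chains, 2 of 3 tested fell. Col5a3, a further type V chain, had 69.4 ± 22.7 CPM in DDR2-plus, against 303 ± 82.1 CPM in PSC (log2 fold change -2.12, SE 0.232; edgeR adjusted p = 1.58e-05). Col6a6 had 23 ± 11.4 CPM in DDR2-plus, against 78.7 ± 20.5 CPM in PSC (log2 fold change -1.77, SE 0.334; edgeR adjusted p = 0.00105), and Col6a5, with 1.78 CPM in DDR2-plus against 3.19 CPM in PSC, did not pass. Col5a3 thus fell with Col5a1 and Col5a2.

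Of 4 other fibril-associated collagens tested, 2 fell. Col22a1, known from tissue junctions, had 169 ± 50.7 CPM in DDR2-plus, against 664 ± 67.8 CPM in PSC (log2 fold change -1.97; edgeR adjusted p = 3.01e-06). Col16a1 had 1653 ± 128 CPM in DDR2-plus, against 1900 ± 89.3 CPM in PSC, with a log2 difference of -0.20 (edgeR adjusted p = 0.0323) that turned to 0.07 (adjusted p = 0.405) with library size alone. Col19a1 and Col20a1, at 1.74 and 0.677 CPM in DDR2-plus and 0.679 and 0.556 CPM in PSC, did not pass.

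The 7 cartilage collagens rose, 7 of 7, with a median log2 fold change of 2.45. Col2a1 had 81438 ± 10379 CPM in DDR2-plus, against 13380.0 ± 4266 CPM in PSC (log2 fold change 2.61, SE 0.204; edgeR adjusted p = 1.38e-06). Col10a1, the collagen of hypertrophic cartilage, was 7.74-fold higher. Col11a1 and Col11a2, fibril chains closely related to type V, were 2.7-fold and 2.82-fold higher. Type V and type XI chains, which are nucleators of fibrils of type I and type II, thus moved in opposite directions.

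Of 8 basement membrane collagens, 4 fell and 0 rose, with a median log2 fold change of -1.27. Col18a1 had 24.7 ± 5.85 CPM in DDR2-plus, against 209 ± 43.8 CPM in PSC (log2 fold change -3.08; edgeR adjusted p = 4.22e-07), and Col15a1, Col4a1 and Col4a2 were 4.67-fold, 3.42-fold and 1.74-fold lower. Col4a5, with 25.2 CPM in DDR2-plus against 26 CPM in PSC, and Col4a6, with 2.78 CPM in DDR2-plus against 1.67 CPM in PSC, did not pass. Among 11 remaining collagens, 5 fell and 3 rose. Col13a1, a transmembrane collagen, and Col24a1, a fibrillar collagen of bone, were 3.69-fold and 2.59-fold lower, Col8a2 was 1.74-fold lower, and Col27a1, a fibrillar collagen of cartilage, was 4.49-fold higher. Col23a1 (19.1 CPM in DDR2-plus, against 18 CPM in PSC) and Col26a1 (62.4 CPM in DDR2-plus, against 68.9 CPM in PSC) did not pass.

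**Figure D4:**
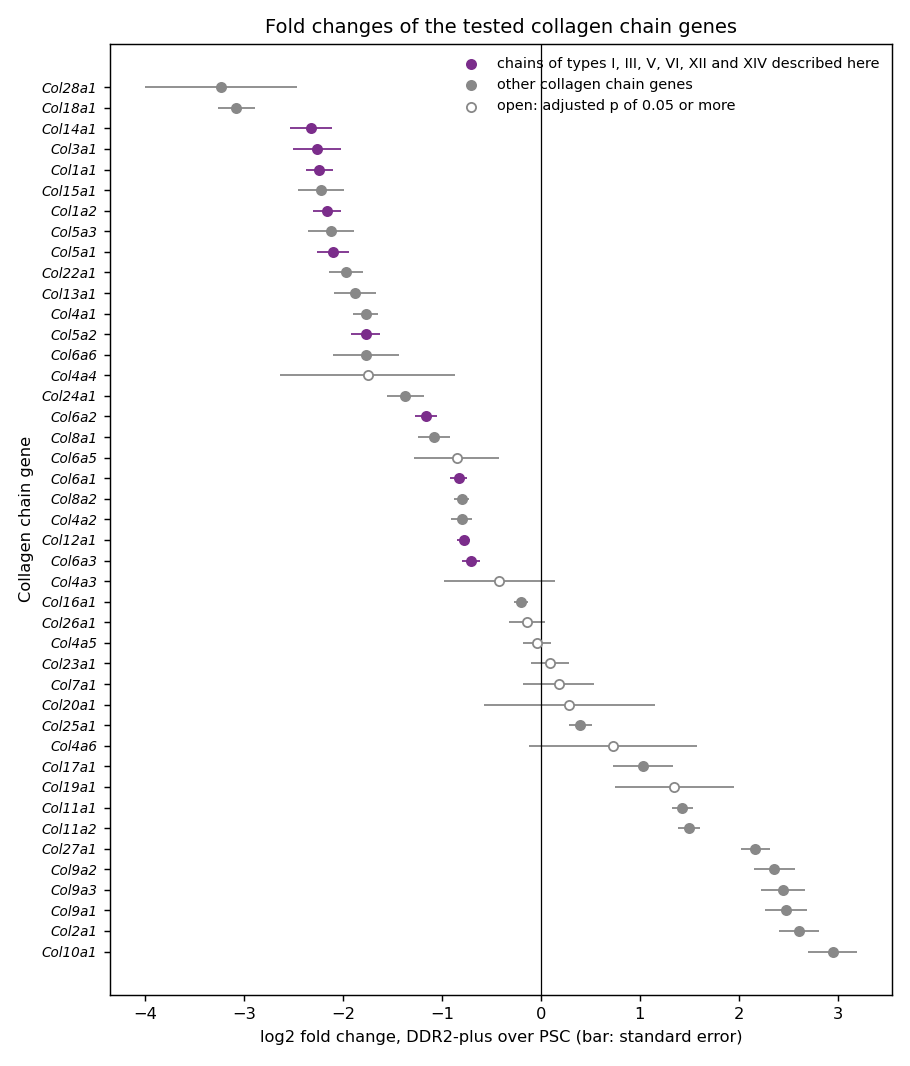
Log2 fold change of DDR2-plus over PSC for the tested collagen genes, ordered by fold change, with the 10 members coloured apart from the other collagen genes. Points are edgeR estimates, bars are standard errors and open points have an adjusted p of 0.05 or more. The 10 members lie between -2.32 and -0.71 and the 7 cartilage collagens lie above 0.

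Enzymes and chaperones that fold and modify collagen chains had a smaller median change than the 10 chains. Of 18 such genes, 11 fell and 3 rose, with a median log2 fold change of -0.26, but with library size alone 4 fell and 7 rose, so that no common direction holds over the scalings. P4ha3, a subunit of prolyl 4-hydroxylase, had 38.9 ± 5.44 CPM in DDR2-plus, against 88.6 ± 5.78 CPM in PSC (log2 fold change -1.19; edgeR adjusted p = 2.38e-06). Plod1, a lysyl hydroxylase, was 1.56-fold lower, whereas Plod2, the lysyl hydroxylase of the telopeptides, had 256 ± 36 CPM in DDR2-plus, against 128 ± 15.7 CPM in PSC and was 2.01-fold higher. Colgalt2, a collagen galactosyltransferase, was 2.73-fold higher. These 4 kept their direction with library size alone. P4hb, the shared subunit of prolyl 4-hydroxylase, had 1596 ± 81.1 CPM in DDR2-plus, against 1603 ± 53.9 CPM in PSC and did not pass (log2 fold change -0.01; edgeR adjusted p = 0.945), but passed as higher with library size alone (0.26; edgeR adjusted p = 0.00178). P3h4 had 268 CPM in DDR2-plus against 289 CPM in PSC and did not pass (log2 fold change -0.11; edgeR adjusted p = 0.158), but passed as higher with library size alone (0.16; edgeR adjusted p = 0.0334).

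Among 13 genes of procollagen processing and cross-linking, 7 fell and 4 rose, with a median log2 fold change of -1.26. Bmp1, the protease that removes the carboxyl propeptide of fibrillar procollagens, had 265 ± 37.3 CPM in DDR2-plus, against 709.8 ± 28.8 CPM in PSC (log2 fold change -1.42; edgeR adjusted p = 4.55e-07). Its enhancers went opposite ways. Pcolce had 548 ± 127 CPM in DDR2-plus, against 1982 ± 106 CPM in PSC (log2 fold change -1.85; edgeR adjusted p = 9.72e-07), and Pcolce2 had 499 ± 58.9 CPM in DDR2-plus, against 87 ± 17.9 CPM in PSC (log2 fold change 2.52; edgeR adjusted p = 3.34e-07). Adamts2, a protease that removes the amino propeptide, had 157 ± 41.2 CPM in DDR2-plus, against 629 ± 29.5 CPM in PSC and was 4.01-fold lower (edgeR adjusted p = 1.09e-06). Tll1, with 8 CPM in DDR2-plus against 6.99 CPM in PSC, and Tll2, with 0.324 CPM in DDR2-plus against 0.44 CPM in PSC, did not pass. The log2 fold changes of Bmp1 and Adamts2 lay within the range of those of the 10 collagens. The 4 genes of the list that rose were Pcolce2, Adamts3, Loxl3 and Loxl4.

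Of 14 matrix proteins that bind collagen fibrils, 11 fell and 3 rose, with a median log2 fold change of -1.33. The 3 that rose were Fn1, Fmod and Prelp, which were 1.75-fold, 1.41-fold and 1.58-fold higher. Aspn, which encodes asporin, was 6.5-fold lower, Thbs2, which encodes thrombospondin 2, was 4.2-fold lower, Dcn, which encodes decorin, was 3.28-fold lower, and Sparc, which encodes osteonectin, was 1.91-fold lower. Of 8 collagen receptor genes tested, 5 fell and 3 rose. Itga11, an integrin chain that binds type I collagen, was 1.65-fold lower and its partner Itgb1 1.5-fold lower, whereas Itga10, an integrin chain of chondrocytes that binds type II collagen, was 1.78-fold higher. Itga2, another collagen-binding integrin chain, was 4.49-fold lower. Ddr2, for which DDR2-plus cells are named, was among the 5 that fell, with 112 ± 3.55 CPM in DDR2-plus, against 152 ± 10.7 CPM in PSC.

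The genes whose profile over the 10 libraries lay closest to that of Col1a1 were sought among 8873 genes with a mean of at least 10 CPM, by the root mean square distance between centred log2 CPM profiles. Col1a2 was the closest, at 0.0564, and Col5a1 ranked 3, at 0.137. The others ranked 28 or later: Col14a1 was at 0.241, Col5a2 at 0.242, Col3a1 at 0.277, Col6a2 at 0.583, Col6a1 at 0.754, Col12a1 at 0.773 and Col6a3 at 0.814. Outside the members, the closest were Serpinf1, which encodes a secreted serpin also known as PEDF (0.102), Lgals1, which encodes the lectin galectin-1 (0.144), Pcsk5, a proprotein convertase (0.147), Ifitm3, an interferon-induced membrane protein (0.177), and Crip1, which encodes a small LIM protein (0.183). Serpinf1 had 830.3 ± 201 CPM in DDR2-plus, against 3990.0 ± 200.2 CPM in PSC. The libraries share their group structure, so a small distance mostly describes an equal difference between the groups.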

How the data were processed

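Cells were sorted from mouse calvarial sutures, and RNA-seq libraries came from full-length cDNA amplified from 1 ng of RNA, per the labels' protocols. The authors deposited raw counts, whole numbers for each gene symbol, with unequal library totals. Per the submitters' processing notes the build was mm10 and the tools included DESeq. Which aligner, counter and annotation were used is not given in the sources used here.

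Groups were compared in R 4.3.3 with edgeR 4.0.16 (quasi-likelihood F test, TMM factors, genes kept by filterByExpr, Benjamini-Hochberg threshold 0.05), DDR2-plus over PSC, with no covariate. The SE of an edgeR log2 fold change was taken as its absolute value divided by the square root of its F statistic. CPM values were scaled by TMM factors, and shares are of raw counts. DESeq2 1.42.0, limma-voom (limma 3.58.1), other scalings, no filter and left-out libraries were alternatives. Ratios between chains were compared with exact permutation tests. The fit was tested on simulated counts in which few genes changed, which does not test the scaling between the groups. Gene positions and merged exon lengths came from GENCODE M21 (mm10). Without strand, reads of antisense transcripts cannot be told apart, and amplified reads are not independent molecules. No pair of libraries of a group agreed within sampling noise (lowest chi-square per degree of freedom 41.9).

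The members and lists were chosen with earlier results of these data known. All members were named. From each other list of collagens, enzymes, partners and receptors, up to 4 genes past the threshold with the smallest p and up to 2 genes not past it, those with the highest mean CPM of the list's uncalled genes, which can be low, were named. Ddr2, single markers, Adamts3, Loxl3, Loxl4, Fn1, Fmod and Prelp were named after their values were seen. Genes most like Col1a1 were the 5 closest outside the members.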

Additional observations from a re-analysis of the deposited data

Results flagged for a closer look

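Over 42 sets of 5 values examined (the CPM, shares and ratios of a group), 2 had a library far from the other 4; chance alone gives this in about 1 in 20 sets. The log2 ratio of Col6a3 to Col6a1 was -0.82 in DDR2-plus 3, with the nearest other DDR2-plus library at -0.85. The log2 ratio of Col5a1 to Col1a1 was -4.84 in DDR2-plus 5, with the nearest other DDR2-plus library at -5.05. Without DDR2-plus 5, the difference of the Col5a1 to Col1a1 ratio between DDR2-plus and PSC was 0.10 on the log2 scale and did not pass the exact permutation test (adjusted p = 0.238), as it did not with all libraries.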

How the results depend on the processing

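Each of the 10 members kept its direction and its call in 18 of 18 alternatives. The log2 fold change of Col1a1 lay between -2.38 and -1.97 over them and that of Col6a3 between -0.77 and -0.44, with a highest adjusted p of 0.00294 for Col6a3. Without DDR2-plus 1, 4 and 5, a setting chosen after seeing the data, 3021 genes changed (1539 higher, 1482 lower), in fewer libraries, and 10 members still fell. Scaled by library size alone, 5408 genes rose and 1539 fell, other fibril-associated collagens had 1 lower and 1 higher, and folding genes had 4 lower and 7 higher. Under limma-voom the fibril-associated list had 1 higher. Scaling by library size alone drops the TMM factors and moved the log2 fold changes up together. Col1a1 went from -2.24 to -1.97 and Col6a3 from -0.71 to -0.44. The median of all tested genes went from 0.04 to 0.31. The cause of the other moves was not tested. Leaving out single libraries, 5176 to 6020.0 genes changed, the members' mean share was 6.71% to 7.79% in DDR2-plus and 26.6% to 27.3% in PSC, and the Col1a2 to Col1a1 difference was 0.06 to 0.09, with an adjusted p of up to 0.068. The Col3a1 to Col1a1 difference was -0.21 to 0.03, with 0.03 without DDR2-plus 2.

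Same-numbered libraries had correlations of deviations between 0.00652 and 0.0898. The values were 0.0898 for number 3, 0.0472 for number 2 and 0.0444 for number 5. The highest between libraries of different number was 0.0347, for DDR2-plus 4 and PSC 2. Libraries 1 and 4 did not correlate best with their own number. Whether shared numbers mark pairs is thus not settled, and the main fit did not take them as pairs. With a replicate block 5742 genes changed and 10 members fell. The block test of ratios over 5 pairs cannot give p under 0.0625, so none could pass: the differences stayed at 0.08 for Col1a2 to Col1a1 (adjusted p = 0.156) and, with an adjusted p of 0.104 by exact sign-flip permutation, at 0.32 for Col5a2 to Col5a1, -0.33 for Col6a2 to Col6a1, 0.13 for Col6a3 to Col6a1, 1.44 for Col6a1 to Col1a1, 1.49 for Col12a1 to Col1a1 and -1.59 for Col14a1 to Col12a1.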
